A study of Mus musculus with 6 samples.

Results

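The 3 profiles described here each give the genomic DNA of the forestomach epithelia minus that of the stroma within 1 Tgfbr2 fspKO mouse. All 6 arrays of the series enter them, 3 of epithelia and 3 of stroma, and the mouse ID in the sample labels pairs them into 3 of 3 possible pairs. The tissues were taken by laser capture, by their morphology, from 5-week-old C57Bl/6 mice with squamous cell carcinoma of the forestomach. In these mice Cre under the FSP1 promoter deletes Tgfbr2 in FSP1+ fibroblasts, so the epithelial cells are not the intended target of the deletion, and both tissues of a pair carry the same inherited floxed alleles and Cre. On every array the test DNA carried Cy3, and reference DNA from normal forestomach epithelia of Tgfbr2 flox/flox mice carried Cy5, with no dye swap. Mice 1 and 2 shared a slide, mouse 3 had a slide of its own, and both tissues of a mouse were on the same slide.

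Array-CGH reads the relative amount of DNA at each probe, so a stretch of a chromosome that a tumor has gained or lost shifts many neighboring probes together. Squamous cell carcinomas often carry gains and losses of whole chromosomes or arms, beside small deletions that remove tumor suppressor genes. When a tumor is set against normal tissue of the same animal, variants that the animal inherited are present on both sides and drop out of the difference. Tgfbr2 encodes the type II receptor of TGF-β, a signal that restrains the growth of epithelial cells.

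For each probe, the test signal divided by the reference signal, both as processed by the feature extraction software, was put on the log2 scale and centered on the array median, and the stromal value was taken from the epithelial value of the same mouse. A positive difference thus stands for more DNA in the epithelia, relative to the rest of the genome. In a pure diploid tissue, 1 extra copy would give 0.58 on the log2 scale, and the loss of 1 copy would move the value further in the other direction. A small change in every captured cell and a larger change in part of the cells cannot be told apart in such bulk DNA. The profiles were read on chromosomes 1 to 19 of mouse build mm8, over 40666 probes with a median distance of 21466 bp between neighboring starts. They were summed up as means of 19 chromosomes and of 408 windows of 100 consecutive probes, where the last window of a chromosome could hold fewer or more and at least 50, and divided into stretches of constant level by a penalized least-squares segmentation. With 3 pairs, the precision of all values is low.

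The difference profile of mouse 2 stood apart from the others before any region was considered. Over the 408 windows the SD of the difference was 0.14 in mouse 1, 0.34 in mouse 2 and 0.13 in mouse 3. The windows of mouse 1 ran from -0.48 to 0.57, those of mouse 2 from -0.74 to 1.15 and those of mouse 3 from -0.45 to 0.54. In mouse 2, 45.1% of the windows lay beyond 0.25 either way, against 8.09% in mouse 1 and 6.13% in mouse 3. From probe to probe the noise had an SD of 0.71, 0.94 and 0.34 in mice 1, 2 and 3, so the profile of mouse 3 was the smoothest. The feature extraction software also gave each array a spread of neighboring log ratios. It was 0.835 on the epithelial array of mouse 2 and between 0.395 and 0.488 on the others, its stromal array included. That epithelial array also had the lowest signal to noise in the test channel, at 16.6. The software marked no array as within its range for the spread.

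In mouse 2 the difference followed the brightness of the probes. Brightness was taken from the reference channel alone, as the mean log2 Cy5 signal of a window over the 6 arrays. Across the 408 windows, which share their arrays and are not independent, the difference correlated with it at r = -0.842 in mouse 2, at -0.183 in mouse 1 and at 0.349 in mouse 3. Dim windows were thus high in mouse 2 and, to a lesser degree, low in mouse 3. The part of the brightness in the results below was not tested. Beside them stand values with the linear trend on brightness taken off each profile, an alternative chosen after seeing the data, under which the SD over windows was 0.14, 0.18 and 0.12 in mice 1, 2 and 3.

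Across the windows, the differences followed the test channel. The Cy3 signal alone, epithelia minus stroma, had an SD over windows of 0.14, 0.35 and 0.14 in mice 1, 2 and 3, and it correlated with the difference of the ratios at 0.963, 0.988 and 0.974. The Cy5 signal alone, which holds reference DNA on both arrays of a pair, had an SD of 0.04, 0.05 and 0.03. For single chromosomes the test channel could differ from the ratios. Chromosome 15 of mouse 3 had 0.04 by the ratios and -0.02 by the test channel alone. The labels do not state whether all arrays received the same pool of reference DNA, and this was not tested. Within the pairs, the epithelial array carried 61.5%, 80.5% and 79.8% of the variance of the difference in mice 1, 2 and 3, and the stromal array 38.6%, 19.5% and 20.1%. The stromal array thus held part of the variance of the difference in each mouse.

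A stretch that was low on all 6 arrays against the reference DNA canceled to 0.00 in mouse 1 alone. The longest stretch with a mean beyond 0.5 over the 6 arrays, 19 probes from 69561599 to 71405535 of chromosome 1, had epithelial log2 ratios of -0.76, -1.18 and -0.79 for mice 1, 2 and 3, and stromal ones of -0.77, -0.75 and -1.03. Its difference was 0.00 in mouse 1, -0.44 in mouse 2 and 0.24 in mouse 3, without a common sign. On the X chromosome the mean difference was 0.02, -0.22 and 0.05 in mice 1, 2 and 3, so mouse 2 was set apart there as well.

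**Figure D1:**
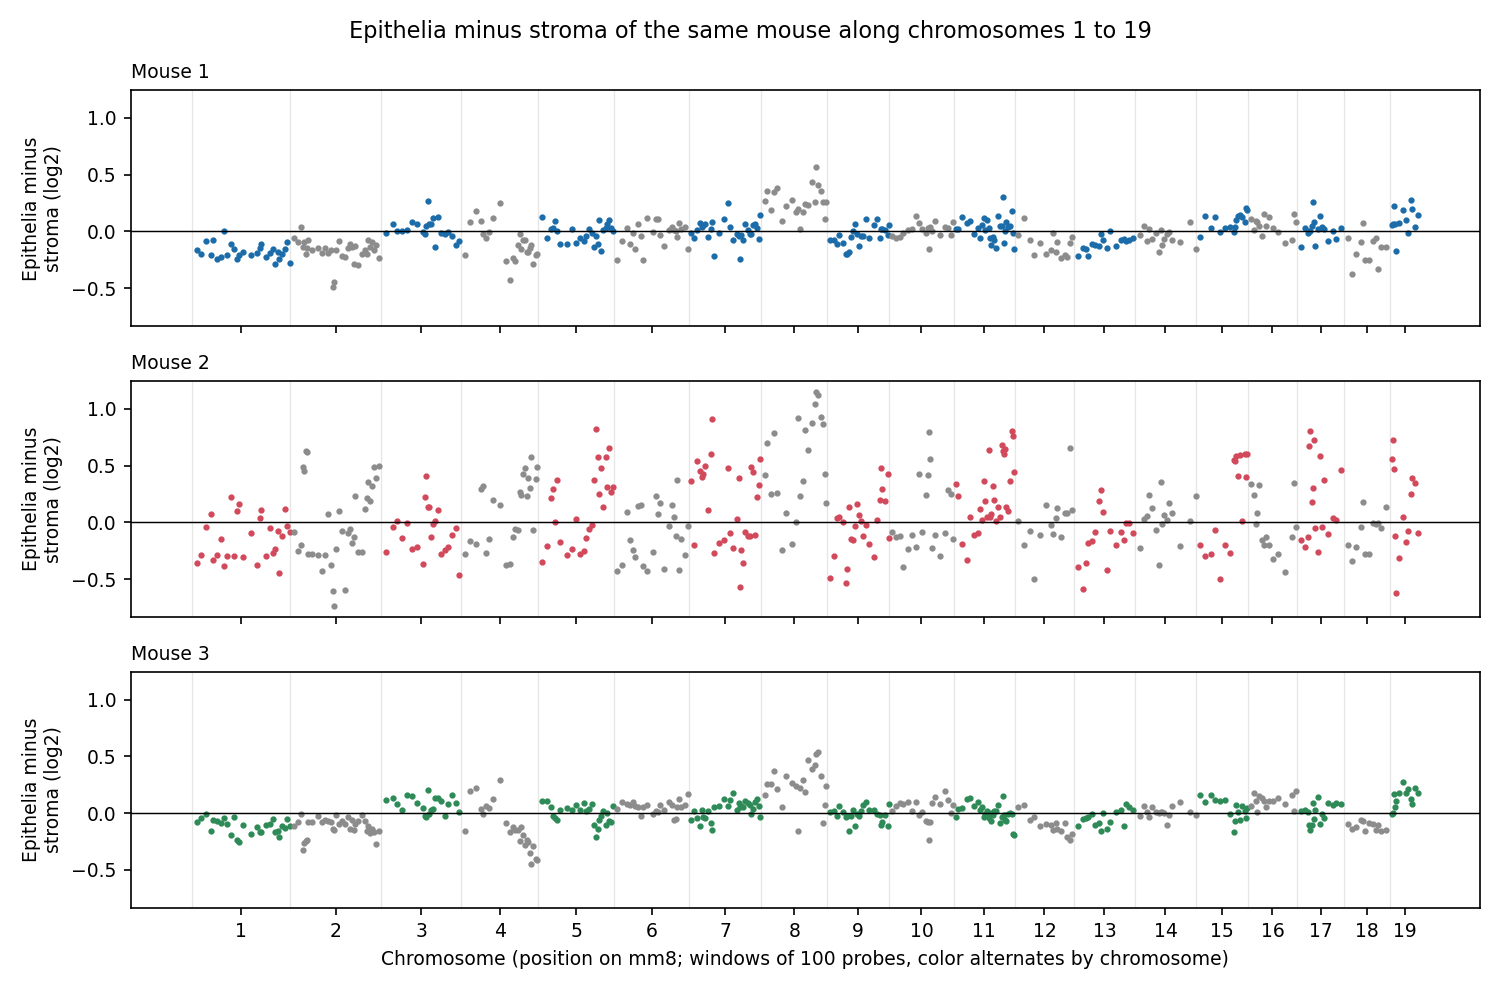
Epithelia minus stroma on the log2 scale (vertical axis) for the 408 windows of 100 probes along chromosomes 1 to 19 of mm8 (horizontal axis), 1 panel per mouse, with a point for each window. On chromosome 8, 22, 20 and 20 of 22 windows are above 0 in mice 1, 2 and 3. Over all 408 windows those of mouse 2 spread most, from -0.74 to 1.15.

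Which mice were most alike depended on the processing. Across the 408 windows mouse 1 correlated with mouse 3 at 0.642 and with mouse 2 at 0.453, and mouse 2 with mouse 3 at -0.0386. Without the 22 windows of chromosome 8 these values were 0.544, 0.337 and -0.282. With the brightness trend taken off, the same 3 correlations over all windows were 0.767, 0.562 and 0.505. Under loess within arrays the order changed, to 0.543 for mice 1 and 3, 0.680 for mice 1 and 2, which shared a slide, and 0.109 for mice 2 and 3. No array is part of more than 1 profile, and windows of a profile are not replicates. In all, 64 of the 408 windows (15.7%) were higher in the epithelia of 3 of 3 mice and 76 (18.6%) were lower. Of the 64, 18 were among the 22 windows of chromosome 8. Of the 76, 20 were among the 28 windows of chromosome 1, 19 among the 35 of chromosome 2 and 10 among the 12 of chromosome 18. Which sign was more frequent also depended on the processing. With the brightness trend taken off, 110 windows were higher and 83 lower in 3 of 3 mice. Under loess 80 were higher and 80 lower, and with normexp background correction 73 and 89.

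Of the 19 chromosome means, 2 (10.5%) passed an adjusted p of 0.05 in limma on the 3 paired differences. Chromosome 8 was higher in the epithelia and chromosome 1 lower. Before adjustment 7 (36.8%) had a p under 0.05. An ordinary test per chromosome, without limma's pooled spread, gave 0 after adjustment and 3 at an unadjusted p under 0.05. Neither call held with the slide as a block, without mouse 1 or without mouse 3, where limma gave 0 chromosomes each time. The differences themselves were 0.35, 0.39 and 0.40 for chromosome 8 and -0.15, -0.13 and -0.16 for chromosome 1 in these 3 settings, close to the 0.35 and -0.15 of all mice. Without mouse 2 there were 11, of which 5 were higher and 6 lower. In that fit of 2 pairs limma used 1 pooled spread for all chromosomes. Its p values thus do not measure how far each chromosome varied between mice. The same held under loess and with the brightness trend taken off. When the pairing was left out and the mean of the epithelia was set against the mean of the stroma, 4 chromosomes passed, namely 8 and 19 as higher and 1 and 18 as lower.

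**Figure D2:**
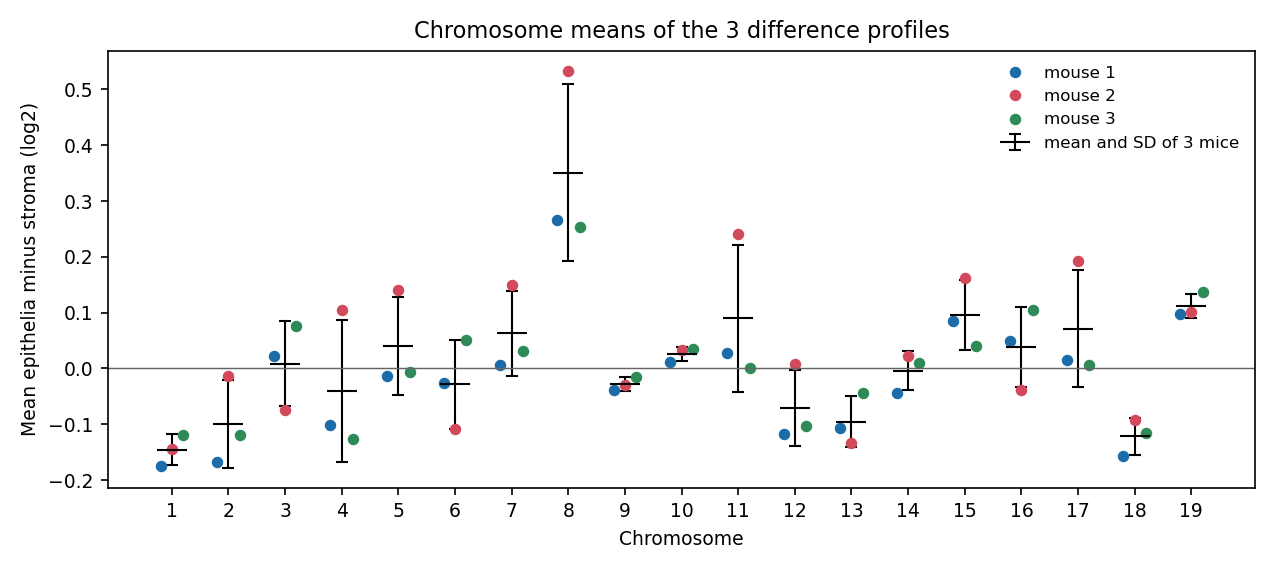
Mean epithelia minus stroma on the log2 scale (vertical axis) over the probes of each chromosome (horizontal axis), with a point for each mouse and a bar for the mean and SD of the 3 mice. Chromosome 8 is highest, between 0.25 and 0.53, and chromosomes 1 and 18 are below 0 in each mouse.

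Chromosome 8 showed the largest difference of the 19. The mean over its 2155 probes was 0.27 in mouse 1, 0.53 in mouse 2 and 0.25 in mouse 3, or 1.20, 1.45 and 1.19 times as much DNA in the epithelia relative to the array median. The mean of the 3 mice was 0.35 ± 0.16 (SD, n = 3). The epithelia of mice 1, 2 and 3 had log2 ratios of 0.24, 0.50 and 0.29, and the stroma had -0.02, -0.04 and 0.03. The difference therefore lay in the epithelia, and the tissues did not overlap. The test channel alone gave 0.29, 0.50 and 0.21, and the reference channel 0.00, 0.00 and -0.01. In limma the adjusted p was 0.0161 over 19 chromosomes, with the same sign in 3 of 3 mice. Over 16 alternatives it ranged from 7.5e-11 to 0.345 and passed the threshold in 12. The lowest value came from the brightness alternative chosen after seeing the data, and the highest from leaving out mouse 1. In the former fit limma used 1 pooled spread for all chromosomes. The mean was 0.40 within the slide of mice 1 and 2 and 0.25 on the slide of mouse 3. Taking the brightness trend off gave 0.25, 0.41 and 0.27.

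Along chromosome 8 the level was not uniform. In mouse 1 all 22 windows were above 0, from 0.02 to 0.57, and the segmentation left the chromosome in 1 piece of 2139 probes with a mean of 0.26. In mouse 3 it found a step up between 88926345 and 88950787 and a step down between 121130719 and 121167613. The 585 probes between these steps had a mean of 0.46, against 0.20 before and 0.05 after them. Mouse 2 had steps elsewhere, with 0.55 up to 32597683, -0.12 from 32619528 to 72700119 and 0.75 from 72742443 to the last probe. The stretch of mouse 3 from 88950787 to 121130719, 32.2 Mb long, lay inside called stretches of the other mice, and its mean difference was 0.39 in mouse 1, 0.93 in mouse 2 and 0.46 in mouse 3. Across its probes the stroma was at -0.05, -0.05 and -0.02. It was the only stretch called with 1 sign in 3 of 3 mice, where called means a mean beyond 0.25 either way over at least 3 probes. After the brightness trend was taken off, it had 0.38, 0.76 and 0.49 and the rest of the chromosome 0.21, 0.28 and 0.19. This distal stretch thus stood above the rest of chromosome 8 in each mouse, a description of values that also chose its ends and that was not tested. No stretch was called in all 3 mice with normexp background correction or at a limit of 0.5.

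**Figure D3:**
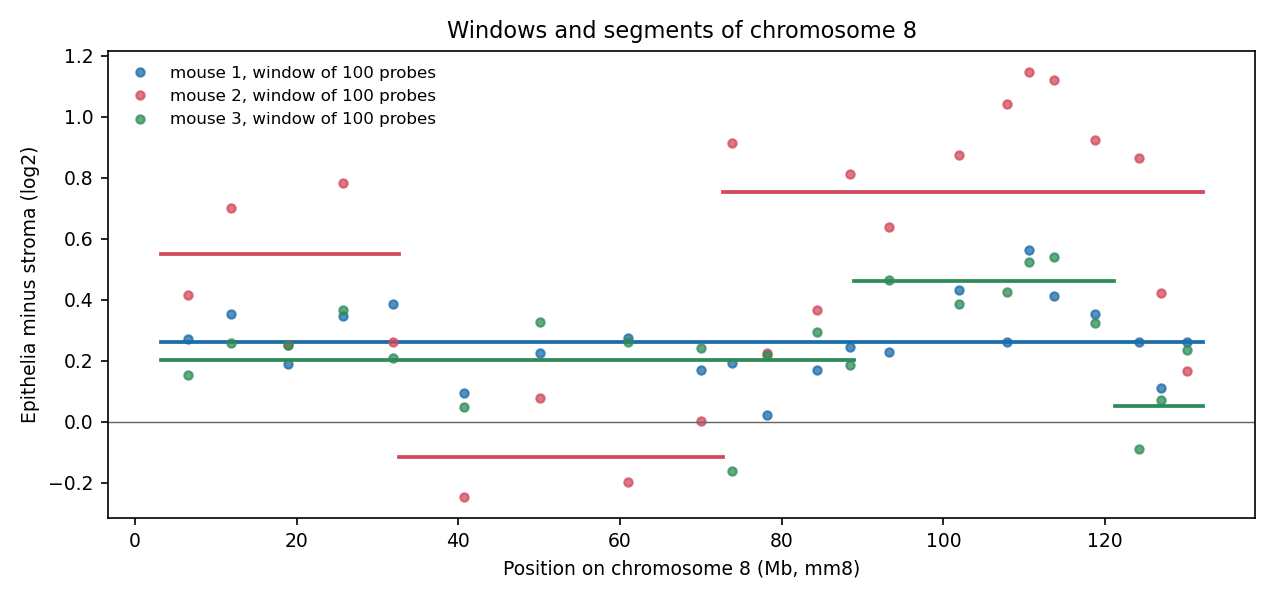
Epithelia minus stroma on the log2 scale (vertical axis) along chromosome 8 in Mb of mm8 (horizontal axis), with a point for each window of 100 probes and lines for the mean of each segment, colored by mouse. The highest windows of each mouse lie near 110 Mb, at 0.57 in mouse 1, 1.15 in mouse 2 and 0.54 in mouse 3.

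No single window passed the threshold, although the highest windows were again those of chromosome 8. Limma called 0 of 408 windows (0%) at an adjusted p under 0.05 and 43 (10.5%) at an unadjusted p under 0.05, and the ordinary test without pooled spread gave 0 and 27. Of the 43 windows, 15 were among the 22 of chromosome 8. The smallest adjusted p was 0.135. The 5 highest mean differences among windows with 1 sign in all 3 mice were on chromosome 8, and none of the windows named here passed the threshold. From 108729228 to 112409430 the difference was 0.57, 1.15 and 0.52 in mice 1, 2 and 3, and from 112429673 to 114888577 it was 0.41, 1.12 and 0.54. The windows at 107015744 to 108722345, 96874570 to 106979575 and 114895180 to 122643699 had means of 0.58, 0.57 and 0.53. In each of the 5 windows mouse 2 was highest, and the stroma of the 3 mice lay between -0.15 and 0.08.

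The count of windows past the threshold differed between the settings. Limma called 78 windows without mouse 2, 27 higher and 51 lower, with 17 of the higher ones on chromosome 8. It called 3 without mouse 1 and 12 without mouse 3, and 54 with array weights, which gave mice 1, 2 and 3 weights of 2.59, 0.24 and 1.59. With the slide as a block it called 9, of which 8 were on chromosome 8 and higher. With a mouse left out, array weights or the slide as a block, limma used 1 pooled spread for all windows. Those counts thus do not rest on how far each window varied between mice. Taking the brightness trend off gave 41 windows, 15 from chromosome 8, and 24 of the 41 were higher and 17 lower. Loess within arrays gave 18 and normexp 9, with 11 and 7 on chromosome 8. Chromosome 8 held called windows in each of these 8 settings, which were picked out because they called any window. The other 11 settings called 0 windows, on chromosome 8 or elsewhere.

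Chromosome 1 was lower in the epithelia of each mouse. The mean difference over its 2756 probes was -0.17, -0.14 and -0.12 in mice 1, 2 and 3, or -0.15 ± 0.03 (SD, n = 3). The epithelial arrays were at -0.10, -0.13 and -0.15 and the stromal arrays at 0.07, 0.01 and -0.03, so the stroma of mouse 1 added to its difference. In limma the adjusted p was 0.0345, and over 16 alternatives it ranged from 1.0e-05 to 0.345 and passed the threshold in 12, with the lowest value without mouse 2 and the highest without mouse 1. Of the 28 windows, 20 were lower in 3 of 3 mice, and those of mouse 3 all lay between -0.25 and -0.01. No stretch of it was called, since no mean reached the limit of 0.25. With the brightness trend taken off, the chromosome mean was -0.16 in mouse 1, -0.01 in mouse 2 and -0.14 in mouse 3. The value of mouse 2 thus moved to near 0, and those of mice 1 and 3 stayed close to where they were.

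Chromosomes 18, 19, 13, 2 and 15 were the other 5 with an unadjusted p under 0.05, and none passed the threshold after adjustment. Chromosome 18 had differences of -0.16, -0.09 and -0.12 in mice 1, 2 and 3, with an adjusted p of 0.0560 in limma (1.4e-05 to 0.345 over 16 alternatives, 11 of them past the threshold). Of its 12 windows, 10 were lower in 3 of 3 mice. Chromosome 19 had 0.10, 0.10 and 0.14, with the same adjusted p of 0.0560 (7.6e-05 to 0.345 over 16 alternatives, 8 past the threshold). The means of both had 1 sign in 3 of 3 mice and a spread between mice of 0.03 and 0.02 (SD). Once the brightness trend was taken off, the mean of chromosome 18 in mouse 2 was 0.01, and chromosome 19 kept 0.10, 0.12 and 0.13. Along chromosome 19 mouse 2 was uneven, with 0.62 over the first 277 probes and -0.04 over the other 1048, where mice 1 and 3 had 0.09 and 0.16. By windows, 7 of 13 were above 0 in mouse 2, against 11 of 13 in mice 1 and 3. Chromosome 13, named after its values were seen, had -0.11, -0.13 and -0.04, with an adjusted p of 0.117 in limma (0.00345 to 0.516 over the alternatives, 3 past the threshold). Its mean in mouse 2 turned to 0.03 once the brightness trend was taken off, beside -0.09 and -0.07 in mice 1 and 3. Chromosome 2 had -0.17, -0.01 and -0.12, so that mouse 2 was close to 0 there. Chromosome 15 had the third highest mean of the 19, with 0.09, 0.16 and 0.04 and an adjusted p of 0.126. Mouse 2 was uneven along it, with -0.29 over the first 669 probes and 0.48 over the other 956. Chromosome 2 had the third lowest, with the same adjusted p. For both the range over the alternatives reached from below to above the threshold, at 0.0145 to 0.516 for chromosome 15, with 4 past it, and 1.0e-05 to 0.531 for chromosome 2, with 6 past it. Without the brightness trend chromosome 15 had 0.07, 0.03 and 0.06, and chromosome 2 had -0.17, 0.00 and -0.12.

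The lowest windows were neighbors on chromosome 2, and there the stroma took part in the difference. From 86779328 to 88994890 the difference was -0.44, -0.74 and -0.15 in mice 1, 2 and 3, and from 84642761 to 86759398 it was -0.48, -0.60 and -0.14. In the former window the epithelia were at 0.05, -0.54 and 0.14, and the stroma at 0.49, 0.20 and 0.28. The stroma was above the array median in each mouse, and the epithelia were below it in mouse 2 alone. These windows were also bright, at 0.69 and 0.46 above the array median of the reference channel. The remaining 3 of the 5 lowest windows with 1 sign lay at 95516990 to 102090201 of chromosome 4, 105739475 to 112166285 of chromosome 2 and 173400488 to 176228025 of chromosome 1, with means of -0.32, -0.31 and -0.30. In that window of chromosome 4 the difference was -0.42, -0.37 and -0.17, with the epithelia at -0.29, -0.34 and -0.24.

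On chromosome 4, 4 consecutive probes from 88759685 to 88864773 had the lowest mean of any 4 neighboring probes in each profile. This is the longest run of the chromosome with ratios below -2 in all 3 epithelia, a choice made on values that enter the difference, so they are given as a description without a test. The mean difference was -4.60 in mouse 1, -3.40 in mouse 2 and -3.48 in mouse 3, or -3.83 ± 0.67 (SD, n = 3). The profiles of mice 1, 2 and 3 held 40265, 40573 and 40138 runs of 4 autosomal probes, and the lowest run elsewhere had -1.67, -2.42 and -1.50. The test channel alone gave -3.92, -3.61 and -3.55. The probe before the run, at 88654555, had differences of 0.58, -0.44 and 0.33. The probe after it, at 89184415, had -0.36, -0.44 and 0.38. The low level of the run thus did not extend to these probes in any of the 3 mice. Where it ends between them and the run cannot be read from these probes, and each side rests on 1 probe. The segmentation called the 4 probes in mice 1 and 3, with ends at the same probes. In mouse 2, the noisiest profile, it did not call them. With normexp, or with the penalty of the segmentation doubled, the call was lost in mouse 1 and stayed in mouse 3. Among probes well above background, which leave out most of the run, neither mouse had it. The 4 probes were not assigned to a gene, since the files used here pair no probe with one.

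Most epithelial spots of the run were dim. Probe A_53_P131690 had test signals well above background on 6 of 6 arrays, and its difference was -3.96, -3.43 and -3.45 in mice 1, 2 and 3. The next probe, A_53_P176202, was not well above background in any of the 3 epithelia and has only a bound there. By the Cy3 channel alone, normalized by loess and Aquantile, it was lower in the epithelia by a factor of 2.93 or more, and such a value from a single dye can carry dye bias. In mouse 1 its reference channel also differed, by 2.43 between the arrays of the pair. Probes A_53_P119457 and A_53_P122639 were well above background in 1 of 3 epithelia and in 3 of 3 stroma, with differences of -3.56, -3.82 and -2.60, and of -6.03, -3.62 and -4.42. The mean of the run is thus not an exact size, since only A_53_P131690 was bright enough on every array. With normexp background correction the run had -2.17, -1.86 and -2.24, the mean difference of A_53_P131690 was -2.77, and A_53_P176202 and A_53_P119457 no longer passed in limma, with adjusted p of 0.280 and 0.237.

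On either side of the run, mice 1 and 3 had different levels. The segmentation set breaks at both ends of the run at the same probes in these mice. From 3377972 to 88654614 the 944 probes had a mean of 0.06 in mouse 1 and 0.10 in mouse 3, and in mouse 1 the 1548 probes from 89184415 to 155029031 had -0.18. In mouse 3 the level after the run was -0.19 as far as 136161911 and -0.38 from 136168438 on. After the run, 15 of 15 windows were below 0 in mice 1 and 3, against 5 of 15 in mouse 2. Before it, 4, 5 and 2 of 9 windows were below 0 in mice 1, 2 and 3. Among the 150 probes next to the run the mice had 1 sign, with 0.23, 0.08 and 0.29 in mice 1, 2 and 3 before it and -0.39, -0.40 and -0.16 after it. Further on, mouse 2 had 0.34 over the 1091 probes from 116652861 to 155029031, opposite in sign to the -0.15 and -0.29 of mice 1 and 3. That stretch was dim, at -0.60 of log2 reference signal against the array median. With the brightness trend taken off, all of the chromosome after the run had -0.21, -0.09 and -0.21 in place of -0.18, 0.19 and -0.25, and the part before it 0.07, 0.11 and 0.08. The sign in mouse 2 thus depended on this alternative, while in mice 1 and 3 it did not. For the chromosome as a whole the means were -0.10, 0.11 and -0.13, and limma gave an adjusted p of 0.551, with 1.0e-04 without mouse 2 and 0.971 without mouse 3 as the lowest and the highest of the alternatives.

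**Figure D4:**
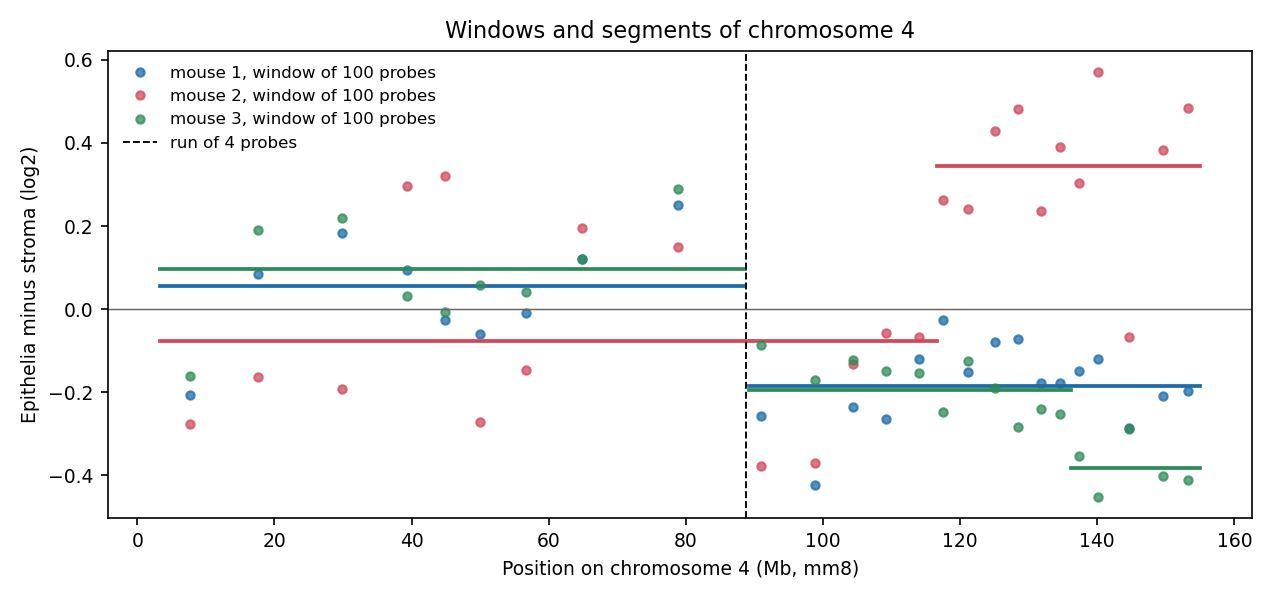
Epithelia minus stroma on the log2 scale (vertical axis) along chromosome 4 in Mb of mm8 (horizontal axis), with a point for each window of 100 probes and lines for the mean of each segment of more than 10 probes, colored by mouse. The dashed line marks the run of 4 probes, whose means of -4.60, -3.40 and -3.48 lie below the axis, and after it mice 1 and 3 are below 0 in 15 of 15 windows.

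Among single probes, 8 of 42404 (0.0189%) passed an adjusted p of 0.05 in limma, and all 8 were lower in the epithelia of 3 of 3 mice. They were the 4 probes of the run, a pair on chromosome 9 and a pair on chromosome 13. Before adjustment 3089 probes (7.28%) had a p under 0.05, and the ordinary test gave 0 after adjustment. On chromosome 9, A_53_P171953 at 54703687 had differences of -5.20, -3.37 and -4.37 in mice 1, 2 and 3, and A_53_P125783 at 44969890 had -2.76, -2.63 and -3.52. The latter had test signals well above background on 6 of 6 arrays. Its adjusted p in limma was 0.0221, and over 15 alternatives it ranged from 2.4e-05 with array weights to 0.839 in the ordinary test and passed the threshold in 11. The stroma was above the array median at both, at 0.88, 0.92 and 0.70 at A_53_P171953 and at 0.59, 0.85 and 1.24 at A_53_P125783. The neighbors of A_53_P125783 had -1.37, -0.61 and -1.35 at 44952944 and -0.34, 0.93 and -0.20 at 45004814. Those of A_53_P171953 had 0.52, -1.53 and -0.36 before it and -0.26, -1.04 and 0.31 after it, so 3 of these 4 neighbors differed in sign between mice. On chromosome 13, A_53_P119493 at 9678947 had -5.13, -2.93 and -3.50, and A_53_P107603 at 97117885 had -2.68, -3.53 and -4.58. Test signals were well above background in 1 of 3 epithelia at A_53_P119493 and in 2 of 3 at A_53_P107603 and at A_53_P171953, so their differences are no exact sizes. With normexp the mean differences of A_53_P119493, A_53_P107603 and A_53_P171953 were -1.93, -2.33 and -2.97. On chromosome 13 the neighbors on both sides lay between -1.12 and 0.44, so these were low values of single probes. After the brightness trend was taken off, 4 of the 8 passed, namely 3 of the run and A_53_P171953. Of the other 4, A_53_P125783 had a mean difference of -3.04 in place of -2.97. A_53_P119493 and A_53_P107603, whose values are no exact sizes, had -3.71 in place of -3.85 and -3.53 in place of -3.59. These 3 were thus about as large as before. A_53_P176202 has only a bound in the epithelia, so its sizes are not compared.

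Among all 42404 probes limma called 0 as higher in the paired fit of all 3 mice. Over the same probes it called 40 higher and 26 lower without mouse 1, with 1 pooled spread for all probes. It called 7 and 13 without mouse 2. With array weights it called 11 higher and 22 lower, and with the slide as a block 1 and 8. Some probes also passed as higher when dim ones were left out. Of the 30176 probes whose signals in both channels were well above background on 6 of 6 arrays, limma called 5, and 3 of them were higher in the epithelia of 3 of 3 mice. This filter removes probes with dim epithelial spots, most of the 8 low probes among them. The balance of higher and lower calls here is thus partly set by the filter. A_53_P158444, at 5773742 of chromosome 5, had differences of 1.77, 2.49 and 3.95, with the epithelia at -0.90, -0.39 and 0.79 and the stroma at -2.67, -2.88 and -3.15. Here the stroma was low and the epithelia were nearer to the reference. A_53_P178261, at 15379045 of chromosome 5, had 2.49, 2.11 and 1.72, and A_53_P125886, at 4995193 of chromosome 11, had 2.33, 1.79 and 1.94. At both, the epithelia were above the array median and the stroma below it in each mouse. These 3 probes were picked out after their values were seen, and their adjusted p among all 42404 probes lay between 0.167 and 0.376.

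The mice differed in the number of called stretches and in the share of probes these held. The segmentation called 2 stretches in mouse 1, 16 in mouse 2 and 3 in mouse 3, which held 5.3%, 27.5% and 2.69% of 40453 probes. Mouse 1 had the run of chromosome 4 and the whole of chromosome 8. Mouse 3 had the run, the distal end of chromosome 4 and the stretch of chromosome 8 described above. In mouse 2, 14 of the 16 were higher and 2 lower, on 11 chromosomes. The lower ones were at the start of chromosomes 15 (-0.29) and 17 (-0.28). The longest were 1266 probes of chromosome 8 (0.75), 1091 of chromosome 4 (0.34) and 1074 of chromosome 5 from 110573393 to 151918350 (0.45). The largest means beside that of chromosome 8 were 0.70 from 74769102 to 81038690 of chromosome 10 and 0.62 from 3259856 to 9026875 of chromosome 19. At that part of chromosome 10 mice 1 and 3 had -0.03 and -0.16, and at that part of chromosome 19 they had 0.11 and 0.05.

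Outside chromosome 8, mice 1 and 3 had no called stretch with the same sign at the higher stretches of mouse 2, and the called distal end of chromosome 4 in mouse 3 lay inside one of them with the opposite sign. At these 12 stretches mouse 1 lay between -0.15 and 0.11 and mouse 3 between -0.29 and 0.05, with values above 0 at 7 of 12 in mouse 1 and 2 of 12 in mouse 3. All 14 higher stretches of mouse 2, chromosome 8 included, were dimmer than the array median in the reference channel, and both lower ones were brighter. With the brightness trend taken off, mouse 2 had 2 called stretches, and its 1898 called probes that were higher were all on chromosome 8. Mouse 1 then had 2 called stretches, as before, and mouse 3 had 2, without the distal end of chromosome 4. With the penalty of the segmentation halved, mice 1, 2 and 3 had 2, 31 and 12 called stretches. They had 1, 5 and 3 with it doubled, and 0, 7 and 2 with normexp.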

How the data were processed

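The deposited intensity values are processed and median spot signals of each channel that the authors made with Feature Extraction 10.7.1.1, which subtracted background and normalized the dyes linearly. Deposited as log10, the other values are ratios of the processed reference over the processed test signal from the same software, and the series table was equal to them. Control spots and outlier spots were left out, spots of a probe were averaged, and log2 ratios of test over reference were centered on the median of each array.

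The pairing comes from the mouse ID in the labels. Deviations from the tissue means correlated between the tissues of mice 1, 2 and 3 at 0.0736, -0.0277 and 0.101 across 40453 probes, and at 0.739, -0.348 and -0.622 across 408 windows. Where this is negative, as across the windows of mice 2 and 3, subtracting within the mouse adds variance to the difference instead of removing it. Paired differences of windows, chromosome means and 42404 probes were tested against 0, two-sided, with limma 3.58.1 in R 4.3.3 and Benjamini-Hochberg adjustment at 0.05. With 3 mice, an exact sign-flip test cannot give a p below 0.25. In some alternatives, most of those with a mouse left out among them, limma relied on the pooled spread alone. A p from such a fit does not measure the spread of a single feature between mice.

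Segmentation was written in Python 3.11.15 with numpy 2.4.6 and numba 0.67.0, with a penalty of 10 times the variance of neighboring probes times the log of the number of probes, and pieces of at least 3 probes. Stretches were shared when they overlapped by at least 50% of the probes of the shorter one. Both methods were tested on simulated data. For limma these had independent features and equal noise on all arrays, unlike the profiles here, so they do not speak for its fits here. In simulated profiles the segmentation made no call where nothing was planted. At the noise of mouse 2 it missed most pieces shorter than a chromosome, as it did most runs of 4 probes at that of mouse 1. Plots were drawn with matplotlib 3.10.9.

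Named windows were the 5 highest and 5 lowest means with 1 sign in all mice, named chromosomes the 3 highest and 3 lowest and those past the threshold, named probes at most 10 in each direction past it with 1 sign, and named stretches those called in 3 of 3 mice and the 3 longest and 3 largest of each mouse. The members and lists were chosen with earlier results of these data known. Gene names and sequences of the probes were not used here, since the gene table used here is on another build than mm8.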

Additional observations from a re-analysis of the deposited data

How the results depend on the processing

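The count of windows past the threshold, 0, was 9 with normexp background correction, 18 with loess, 9 with the slide as a block, 54 with array weights and 41 with the brightness trend taken off, and between 3 and 78 when 1 mouse was left out. It remained 0 in the other 11 settings, windows of 50 and 200 probes and of 5 Mb among them. The count of chromosomes, 2, was 7 with normexp, 8 with loess, 6 among probes well above background, 4 with autosomal centering, 4 without the replicate block (no pairing), 5 with array weights and 5 with the brightness trend taken off. It was 0 with the slide as a block and 0 in the ordinary test, and between 0 and 11 when 1 mouse was left out. The count of probes, 8, was 5 among probes well above background, 33 with array weights, 0 in the ordinary test and 4 with the brightness trend taken off, and between 6 and 66 when 1 mouse was left out. Without the pairing the counts of windows and probes were 0 and 7. The stretches called in 3 of 3 mice, 1, were 0 with normexp and 0 at a limit of 0.5. The mean of the run of 4 probes, -3.83, was -2.09 with normexp and stayed within 1 SD between mice in the other 10 settings, below 0 in each. Among probes well above background it held 1 of the 4 probes, with -3.61. The brightness trend was chosen as an alternative after seeing the data. The causes of these changes were not tested.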
